A study of Mus musculus with 6 samples.

Results

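The collagen genes of the mouse were followed in cortex in which β-catenin had been stabilised in excitatory neurons. A gene counted as a collagen gene when the symbol of its Ensembl identifier was Col, a type number, the letter a and a chain number, which 44 of the 47794 rows of the deposited table met. They cover 27 collagen types and comprise 11 fibrillar, 6 basement membrane and 27 other collagen genes. The genes were listed by symbol, but the class was selected on the group fold changes of this same table. Its fold changes and p-values between the groups are therefore given as a description and are no evidence that collagen genes as a class differ.

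RNA was sequenced from the primary somatosensory cortex of C57BL/6 mice aged 14 days, with 3 libraries per group. The mice called Ovp, for overexpression, carried β-cat lox(ex3), an allele of the β-catenin gene Ctnnb1 with loxP sites around exon 3, together with Nex-Cre. The mice called Ctrl carried the β-cat lox(ex3) allele without the Cre, so both groups had the floxed exon. As background, loss of exon 3 takes away the residues through which β-catenin is marked for breakdown. Nex-Cre is expressed from the Neurod6 locus in forebrain excitatory neurons, so the model does not direct the change to the fibroblasts, endothelial cells and mural cells of the same tissue. Nothing in the labels says whether the 3 libraries of a group came from separate animals, so no p-value can be read as a spread between animals. Those computed here from library values measure the spread between these libraries, part of which may be technical. Which test gave the authors' p-values is not stated in the sources used here. Reads of Y-linked genes, given with the library values, set Ctrl A apart from Ctrl B and C in origin.

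Collagens are secreted or membrane-bound proteins built of 3 chains wound into a triple helix. Fibrillar collagens assemble into fibres, type IV collagen forms the sheet-like network of basement membranes, and the remaining families coat fibrils, form filaments and networks, or span the cell membrane. In the brain, type I, III and VI collagens are known mainly from the meninges and perivascular fibroblasts and type IV from vessel walls, whereas some others are made by neurons.

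The deposited table holds 1 scaled mean read count per gene and group, and these means add up to 18602579 in Ovp and 19016749 in Ctrl. Whole reads of the single libraries could be recovered from the digits of most group means up to 1000, and the libraries are called A, B and C within each group in falling order of their scaling factors. These factors, which stand for depth, were 1.23, 1.06 and 0.966 for Ovp A, B and C and 0.982, 0.926 and 0.907 for Ctrl A, B and C. The letters cannot be tied to the replicate numbers of the labels, and a letter that the groups share stands for the order of depth only. Ctnnb1 had a group mean of 6391 in Ovp and 7574 in Ctrl, with a log2 fold change of -0.25 (authors' deposited table, unadjusted p = 0.0304, adjusted p = 1). That value spans the whole gene and so does not check the removal of exon 3. Neurod6, whose locus carries the Cre, had 1199 in Ovp and 1942 in Ctrl. The cortical excitatory neuron genes Camk2a, at 63088 in Ovp and 66769 in Ctrl, and Slc17a7, at 30449 in Ovp and 31689 in Ctrl, were among the abundant transcripts of both groups.

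All 44 collagen genes had a mean above 0 in both groups, and 43 had a mean over the groups of at least 10 scaled reads. Per kilobase of merged exon, the type IV chains Col4a1 and Col4a2 had the highest levels. Merged exons join all annotated transcripts of a gene, so levels per kb and their order are approximate. Col4a1 stood at 400.3 scaled reads per kb in Ovp and 393 in Ctrl, and Col4a2 at 391 in Ovp and 373 in Ctrl. Next came Col6a1, with 391 scaled reads per kb in Ovp and 318 in Ctrl, followed by Col9a3 with 167 in Ovp and 152 in Ctrl. The fibrillar genes Col5a1 and Col1a1 took the following places. At the low end stood Col10a1, a collagen of growth plate cartilage, with 0.982 scaled reads per kb in Ovp and 1.38 in Ctrl. Col2a1, the main collagen of cartilage, was also low, at 2.23 scaled reads per kb in Ovp and 1.35 in Ctrl.

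**Figure D1:**
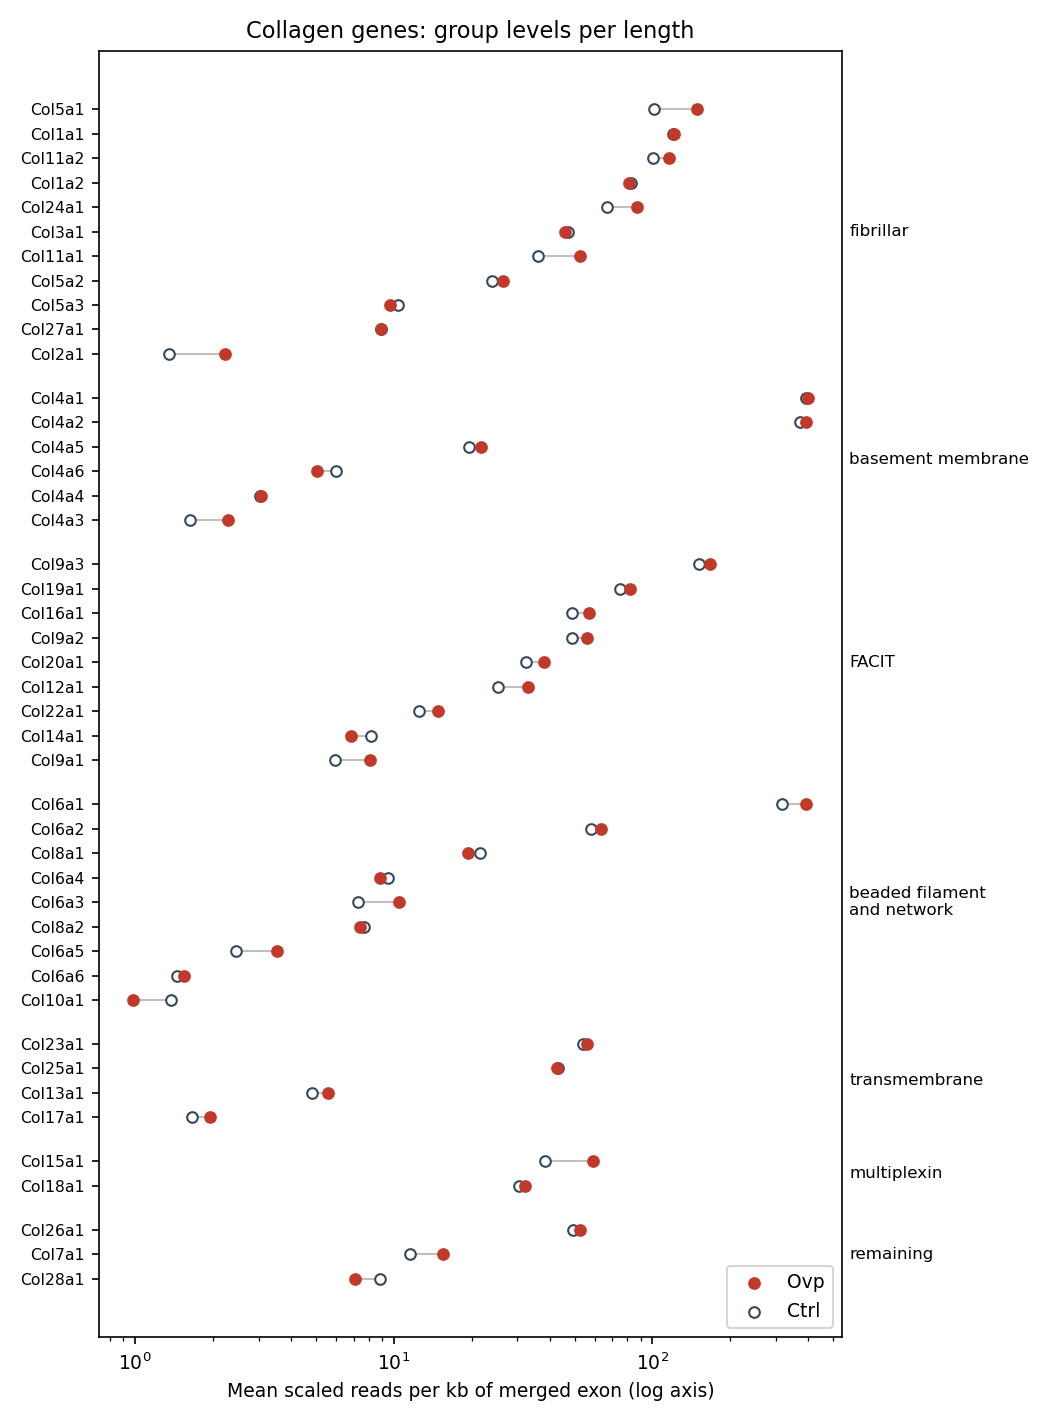
Group means of the 44 collagen genes in scaled reads per kb of merged exon, on a log axis, with Ovp as filled and Ctrl as open circles, and genes ordered by level within each family. Levels run from about 1 for Col10a1 to about 400 for Col4a1, and in most genes the Ovp circle lies to the right of the Ctrl circle.

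Group means were higher in Ovp for 33 and lower for 11 of the 44 genes. Among the 43 with a mean of at least 10, 33 were higher in Ovp, or 76.7%, against 46.8% of all 17095 genes at that level. Their median log2 fold change of Ovp over Ctrl was 0.13, against -0.0089 over all 17095 genes. An Ovp mean at least 1.2-fold above the Ctrl mean was seen in 12 of the 43, against 8.05% of all genes, and only Col28a1 was at least 1.2-fold below. With a mean of at least 100, 25 of 29 collagen genes were higher in Ovp, with a median of 0.15, against 42.2% and a median of -0.02 for all 11645 genes. The authors' deposited table gives an unadjusted p below 0.05 to 3 collagen genes, Col5a1, Col11a1 and Col15a1, all higher in Ovp, against 0.328% of the 30152 genes above 0 in that direction and 0.534% in either direction. By the authors' adjusted p, 0 of the 44 collagen genes and 0% of the 30152 genes were under 0.05, the smallest over all genes being 0.135, and every collagen gene had an adjusted p of 1 there. In bulk tissue a difference in the number of cells of a type and a difference in RNA per cell cannot be told apart.

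**Figure D2:**
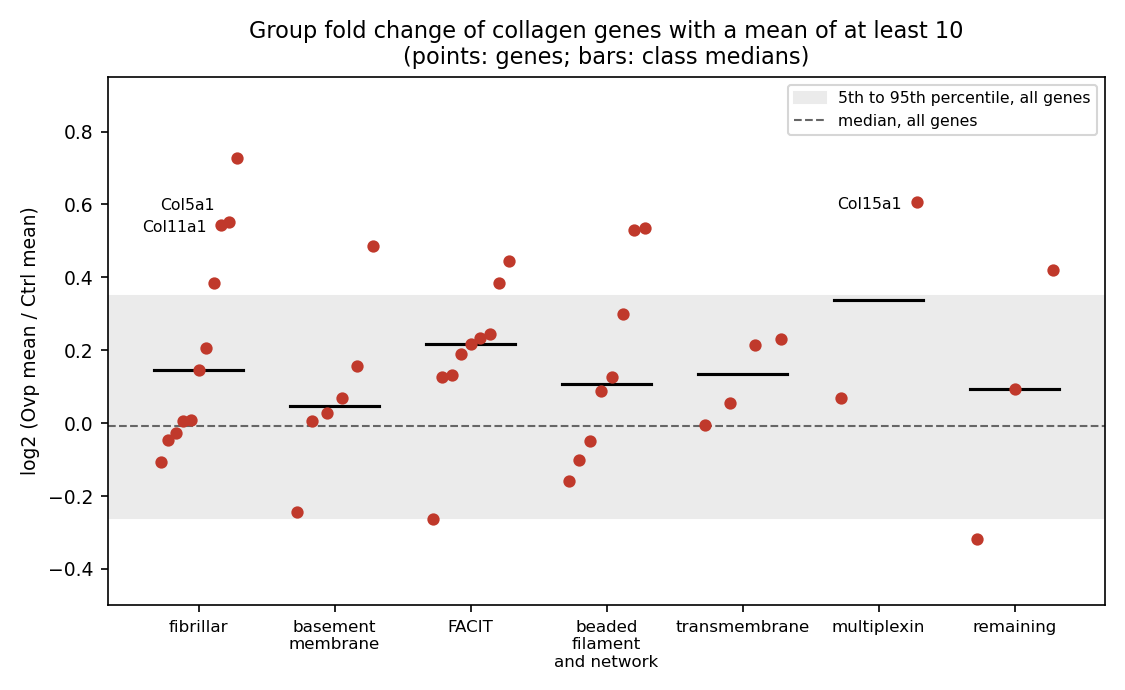
Log2 ratio of the Ovp to the Ctrl group mean for the 43 collagen genes with a mean of at least 10, one point per gene, by family, with bars at the family medians and a grey band from the 5th to the 95th percentile of all 17095 genes. Family medians lie between 0.05 and 0.34, and the 3 genes with an authors' unadjusted p under 0.05 are named.

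The fibrillar genes had a median log2 fold change of 0.15, with 8 higher and 3 lower in Ovp. Col5a1, a type V chain that starts fibril assembly, had a mean of 1259.5 in Ovp, whose libraries could not be separated. In Ctrl it had 640.4, 972 and 966 in A, B and C, with a mean of 859.5. Its log2 fold change was 0.55 with an authors' unadjusted p of 0.000327. Col11a1, a type XI chain of thin fibrils, had a mean of 669 in Ovp and, in Ctrl, 319, 541 and 518 in A, B and C with a mean of 459. The log2 fold change was 0.54 and the authors' unadjusted p 0.00555. For the Ovp mean of Col11a1, 2 sets of library values within 2-fold of the mean were possible. They were 458, 615 and 934, or 706, 606 and 694, for A, B and C. With 458 for A, Ovp A lies below 2 of the Ctrl libraries, and with 706 for A all Ovp libraries lie above all Ctrl libraries. Without the 2-fold limit 5 sets matched the Ovp mean of Col11a1, so the true values may lie outside these 2. The limit can fail, since the only set that matched Col3a1 had 207 in Ovp A against an Ovp mean of 450.

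The upstream windows shown are those of the 3 genes with an authors' unadjusted p under 0.05, since these genes stand out most in the table. Each covers the 250 bases before the RefSeq gene start on GRCm38.p6, read along the gene's strand. That of Col5a1 lies at chr2:27886175-27886424 on the plus strand, that of Col11a1 at chr3:114030290-114030539 on the plus strand and that of Col15a1 at chr4:47207762-47208011 on the plus strand. Capitals mark matches, on either strand, to CCAAT (the CCAAT box), GGGCGG (the GC box, bound by Sp1) or CTTTGAT (a core bound by TCF/LEF factors, the DNA-binding partners of β-catenin). Only these exact runs were searched, so a window without CTTTGAT may still hold another form of the TCF/LEF core.
Col5a1: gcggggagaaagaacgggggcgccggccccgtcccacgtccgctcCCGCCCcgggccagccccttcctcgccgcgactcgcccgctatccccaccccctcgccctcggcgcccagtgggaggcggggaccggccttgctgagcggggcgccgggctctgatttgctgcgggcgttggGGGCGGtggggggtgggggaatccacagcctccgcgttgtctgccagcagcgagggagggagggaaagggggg
Col11a1: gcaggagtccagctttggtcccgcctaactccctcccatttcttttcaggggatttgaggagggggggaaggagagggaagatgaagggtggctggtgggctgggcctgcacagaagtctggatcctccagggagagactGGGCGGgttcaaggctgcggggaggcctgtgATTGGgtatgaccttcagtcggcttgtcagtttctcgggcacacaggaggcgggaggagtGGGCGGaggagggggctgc
Col15a1: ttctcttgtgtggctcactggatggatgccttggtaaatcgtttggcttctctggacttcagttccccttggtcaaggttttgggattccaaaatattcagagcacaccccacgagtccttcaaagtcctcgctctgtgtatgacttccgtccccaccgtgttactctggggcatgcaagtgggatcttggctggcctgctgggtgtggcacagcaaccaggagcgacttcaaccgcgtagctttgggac
The Col5a1 window held 2 GC boxes, the Col11a1 window 2 GC boxes and 1 CCAAT box, and the Col15a1 window none of these. CTTTGAT was in 1 of the 35 collagen windows available, that of Col9a2, or 2.86%, against 3.21% of 32851 windows of the same length. CCAAT was in 12 of 35, or 34.3%, against 33.9% of all windows. The GC box was in 21 of 35, or 60%, against 32.7% of all windows. The collagen windows are 1 per gene, whereas the 32851 windows come from 27025 genes and were not matched to the collagen genes in level. A match is a run of letters and does not show that a factor binds there.

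Among the other fibrillar genes, the chains of type I, the bulk collagen of connective tissue, had near-equal group means. Col1a1 had 793 in Ovp and 789 in Ctrl, and Col1a2 had 1010.2 in Ovp and 1030.0 in Ctrl. Col11a2, the second type XI chain, had 794 in Ovp and, in Ctrl, 632, 767 and 666 in A, B and C. Col24a1, a developmentally regulated fibrillar chain, averaged 662 in Ovp and 507 in Ctrl, whose libraries A, B and C had 352, 471 and 697. Both were higher in Ovp by group mean, with authors' unadjusted p of 0.118 for Col11a2 and 0.148 for Col24a1. Col3a1, the type III collagen of vessel walls and meninges, had 207, 389.6 and 753 in Ovp A, B and C and 328, 578 and 489 in Ctrl A, B and C. The Ctrl libraries of Col3a1 all fell inside the Ovp range. Col5a2 had 193, 257 and 314 in Ovp A, B and C and 189, 265 and 236 in Ctrl A, B and C, so that these groups overlapped as well. Col27a1, a chain of cartilage fibrils, and Col5a3 had means of 116 and 65.8 in Ovp and 116 and 70.8 in Ctrl, with overlapping libraries. Col2a1 had 16.3, 20.7 and 24.8 in Ovp A, B and C and 12.2, 11.9 and 13.2 in Ctrl A, B and C. All Ovp libraries of Col2a1 were above all Ctrl libraries, at few reads. Its log2 fold change in limma was 0.67 ± 0.30 (SE, n = 3 libraries per group) with an unadjusted p of 0.0479. In limma the call was lost with median-ratio scaling, at an unadjusted p of 0.0521, and with no filter on the mean, at 0.0678. It was also lost in limma on leaving out any single library other than Ovp A, with p from 0.065 to 0.166.

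Of the 6 basement membrane genes 5 were higher and 1 lower in Ovp, with a median log2 fold change of 0.05. Col4a1 and Col4a2, which pair in the common type IV network, start 21 bases apart on opposite strands of chromosome 8. Col4a1 had a mean of 2988 in Ovp and 2931 in Ctrl, and Col4a2 one of 2589 in Ovp and 2469.9 in Ctrl, too high for single libraries to be recovered. The ratio of Col4a1 to Col4a2 per kb was 1.02 in Ovp and 1.05 in Ctrl. Reads where these genes overlap cannot be assigned with certainty, because the sources used here do not say whether counting used the strand. Col5a1 and Col15a1 likewise overlap annotated genes on the opposite strand, 2810430I11Rik and Gm13372 for Col5a1 and Gm12426 for Col15a1. The same holds for Col9a3 with Tcfl5, Col10a1 with Nt5dc1, Col4a3 with C430014B12Rik and Col22a1 with Gm16308. Col6a4 overlaps Gm47575 and Gm36993 in this way, and Col6a6 overlaps Gm38314.

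The other type IV chains are rarer, and they too lie in head-to-head pairs. Col4a5 had 72.5, 132 and 233 in Ovp A, B and C and 110.0, 167 and 115 in Ctrl A, B and C, while Col4a6 had 26.1, 31.1 and 63.1 in Ovp and 46.8, 65.9 and 29.8 in Ctrl. Ovp C was the highest Ovp library for both members of this X-linked pair, and Ctrl B the highest Ctrl library for both. Col4a5 was above Col4a6 per kb by a ratio of 4.31 in Ovp and 3.27 in Ctrl. Col4a3 had 12.2, 29.2 and 26.9 in Ovp A, B and C and 4.07, 23.8 and 20.95 in Ctrl A, B and C. Its partner Col4a4 had 34.2, 21.6 and 41.4 in Ovp and 18.3, 44.3 and 34.2 in Ctrl. The groups of all 4 genes overlapped, and Ctrl A was the lowest Ctrl library for Col4a3, Col4a4 and Col4a5.

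The fibril-associated collagens with interrupted helices, FACIT collagens, sit on the surface of fibrils. Group means were higher in Ovp for 8 of these 9 genes, with a median log2 fold change of 0.22. Col9a3, a type IX chain and the most abundant of them, had 608, 644 and 674 in Ovp A, B and C and 528, 613 and 615 in Ctrl A, B and C. These Ovp values of Col9a3 are 1 of 4 sets of reads that match, kept by the 2-fold limit. In that set the ranges of Col9a3 overlapped, since Ovp A was below Ctrl B and C. Col19a1, made by subsets of neurons in the mouse, had 601, 454 and 634 in Ovp and 448, 564 and 537 in Ctrl, with Ovp B inside the Ctrl range. Col12a1, at 502 in Ovp, had 262, 426 and 466 in Ctrl A, B and C. Col16a1 had 393, 393 and 360.1 in Ovp A, B and C and 291, 356 and 339 in Ctrl A, B and C. The Ovp values of Col16a1 are 1 of 3 sets of reads that match the mean, kept because in the other sets a library lies beyond 2-fold of it. In the set kept, every Ovp library was above every Ctrl library. The limma log2 fold change of 0.22 ± 0.11 (SE, n = 3 per group), with an unadjusted p of 0.0673, holds for that set, and its small spread is in part due to the choice. Col20a1 had 194, 200.5 and 193 in Ovp A, B and C and 147, 164 and 189.7 in Ctrl A, B and C. These groups were also separate, by a narrow margin at Ctrl C, with 0.24 ± 0.13 (SE, n = 3 per group) and an unadjusted limma p of 0.102. Among the rest, Col9a2 had a mean of 173 in Ovp and 152 in Ctrl, Col22a1, a collagen of tissue junctions, 136 in Ovp and 115 in Ctrl, and Col9a1 41.0 in Ovp and 30.2 in Ctrl. Col14a1 was the one lower in Ovp, with 46.4, 34.8 and 62.1 in Ovp A, B and C and 49.9, 67.0 and 55.1 in Ctrl A, B and C. All 4 of these overlapped between groups.

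Collagens of beaded filaments and networks had a median log2 fold change of 0.11, with 5 higher and 3 lower among the 8 with a mean of at least 10. Col6a1, a chain of the type VI filaments that surround many cells, had a mean of 1713 in Ovp and 1392 in Ctrl, with a log2 fold change of 0.30 and an authors' unadjusted p of 0.347. Col6a2, its partner in the same trimer, had 404, 532 and 644 in Ovp A, B and C and 456, 481 and 511 in Ctrl A, B and C. Per kb Col6a1 exceeded Col6a2 by a ratio of 6.18 in Ovp and 5.49 in Ctrl. This ratio depends on merged exon lengths of 4380 bases for Col6a1 and 8326 for Col6a2, which join all annotated transcripts. Col6a3, which completes the usual trimer, had 88.0, 119.5 and 169.7 in Ovp A, B and C and 58.0, 131 and 71.7 in Ctrl A, B and C. Ovp C was highest and Ctrl A lowest for Col6a3, with Ctrl B inside the Ovp range. Col6a4, Col6a5 and Col6a6, whose chains can take the place of Col6a3, were at means of 75.6, 33.4 and 14.1 in Ovp and 81.0, 23.2 and 13.3 in Ctrl. Col8a1, which forms hexagonal networks under endothelia, had 74.2, 144 and 236 in Ovp A, B and C and 144, 193 and 169.8 in Ctrl A, B and C. Col8a2 had 19.6, 33.9 and 46.6 in Ovp and 43.8, 43.2 and 16.5 in Ctrl. Both type VIII chains were lowest in Ovp A and highest in Ovp C within their group. Col10a1, below a mean of 10, had 3.07 in Ovp and 4.30 in Ctrl.

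The transmembrane collagens, which are anchored in the cell surface, had a median log2 fold change of 0.13. Col25a1, a neuronal collagen known as a component of amyloid plaques, had 554 in Ovp and 556 in Ctrl, with 618, 619.9 and 431 in Ctrl A, B and C. Col23a1 had 286, 297 and 382 in Ovp A, B and C and 305, 327 and 297 in Ctrl A, B and C. Col13a1, which is needed at the neuromuscular junction, had a mean of 25.7 in Ovp and 22.2 in Ctrl, and Col17a1, a hemidesmosome component of epithelia, 11.7 in Ovp and 9.99 in Ctrl. Of the 4 genes 3 were higher and 1 lower in Ovp, and the groups of the 3 with recovered libraries overlapped.

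The multiplexins are basement membrane collagens whose ends release anti-angiogenic fragments. Col15a1 had a mean of 372 in Ovp and 245 in Ctrl, whose libraries A, B and C had 194, 279.7 and 260.3. Its log2 fold change was 0.61 with an authors' unadjusted p of 0.0334. Library values within 2-fold of the Ovp mean could be 354, 291 and 473 or 602, 282 and 233, for A, B and C. Under the set that begins with 354 the groups were separate, and under the other Ovp C was below Ctrl B and C. Without the 2-fold limit 3 sets matched the Ovp mean of Col15a1, so the true values may lie outside these 2. Col18a1, the source of endostatin, had 133, 218 and 325 in Ovp A, B and C and 191, 222 and 230.5 in Ctrl A, B and C. These Ovp values are 1 of 2 sets of reads that match, kept by the 2-fold limit. In that set all Ctrl libraries of Col18a1 lay inside the Ovp range. Of the remaining genes, Col7a1, which forms anchoring fibrils, had 134, 182 and 160.4 in Ovp A, B and C and 82.5, 139 and 135 in Ctrl A, B and C. Only Ovp A reached into the Ctrl range of Col7a1, and its unadjusted limma p was 0.0551. Col26a1 had 358, 497 and 435 in Ovp and 328, 453 and 428 in Ctrl, and Col28a1 had 31.8, 33.9 and 38.3 in Ovp and 31.6, 54.0 and 44.1 in Ctrl. Col28a1, a type VI-like collagen of peripheral nerve, had the lowest log2 fold change of the 43 genes, at -0.32.

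Library values of both groups were recovered for 31 of the 43 genes with a mean of at least 10, in 25 of which a single set of reads accounted for both means without any limit on the spread. The other 12, among them Col4a1, Col4a2, Col1a1, Col6a1 and all 3 genes with an authors' unadjusted p under 0.05, could not be tested on libraries. For Col9a3, Col16a1, Col6a2, Col18a1, Col26a1 and Col23a1 several sets of reads match the Ovp mean. Their Ovp values are the 1 set with every library within 2-fold of it. What is said of their libraries and overlap holds for that set. In limma on log2(value + 1), 1 of the 31, Col2a1, had an unadjusted p under 0.05, against 2.05% of the 10282 genes fitted, and 0 were under 0.05 after Benjamini-Hochberg adjustment. All 3 Ovp libraries were above all 3 Ctrl libraries for 3 of the 31 genes (Col2a1, Col16a1 and Col20a1), against 4.31% of fitted genes, and below for 0, against 2.71%. For a fitted collagen gene the 95% interval of the group difference reached, at the median, 1.47-fold to either side, against 1.35-fold over all fitted genes.

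**Figure D3:**
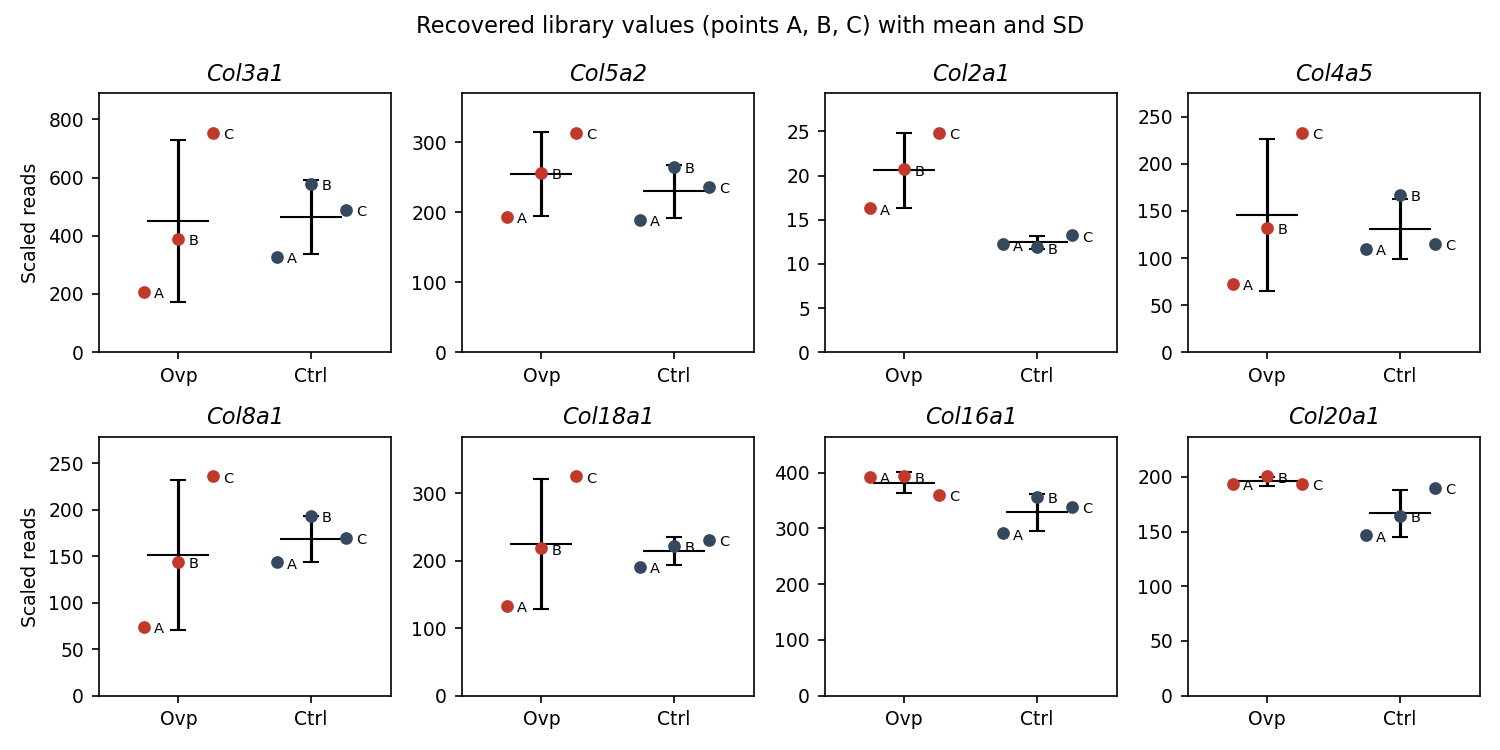
Recovered scaled reads of 8 collagen genes in libraries A, B and C (points) of Ovp and Ctrl, with the mean (long bar) and SD (error bar) of each group on axes that start at 0. Col3a1, Col4a5, Col8a1 and Col18a1 are lowest in Ovp A and highest in Ovp C, whereas the Ovp libraries of Col20a1 lie close together above Ctrl. The Ovp values shown for Col16a1 and Col18a1 are the 1 set with every library within 2-fold of the mean.

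In most collagen genes library A was the lowest of its group. Ovp A was the lowest Ovp library in 23 of the 31 genes, against 35.5% of fitted genes, and Ovp C the highest in 22, against 30.1%. Ovp B was the highest in 8, against 42.3%, and Ovp A in 1, against 27.7%. Ctrl A was the lowest Ctrl library in 32 of the 39 genes recovered in Ctrl, against 36.8% of 12765 genes, and Ctrl B the highest in 25, against 34.0%. Ctrl A was below 0.8 of the mean of Ctrl B and C in 22 of the 39, against 17.1% of all genes. The summed level of the 31 genes was 4501, 5396 and 6592 scaled reads in Ovp A, B and C and 4327, 5643 and 5281 in Ctrl A, B and C. Library A was thus lowest in both groups, and the highest sum was that of Ovp C. Relative to its mean over the 6 libraries, the median collagen gene stood at -0.25, 0.07 and 0.35 on the log2 scale in Ovp A, B and C and at -0.33, 0.06 and 0.00 in Ctrl A, B and C. Library A was below the mean of B and C in both groups for 25 of the 31 genes, or 80.6%, against 33.8% of fitted genes. The median log2 difference between A and the mean of B and C was -0.48 in Ovp and -0.36 in Ctrl, against -0.04 in Ovp and -0.05 in Ctrl over all fitted genes. Lists of collagen-related genes described further on had sums in the same order. The 11 recovered basement membrane partners added up to 2801, 3477 and 3993 scaled reads in Ovp A, B and C and to 3213, 4017 and 3380.1 in Ctrl A, B and C. Sums of recovered genes for procollagen processing, for collagen receptors and for breakdown were likewise lowest in A in both groups, and highest in Ovp C and in Ctrl B. For modification and folding A was lowest in both groups too, but B was the highest Ovp and C the highest Ctrl library. For fibril-associated matrix Ovp A and Ctrl C were lowest. The order of libraries was thus not particular to the collagen genes.

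**Figure D4:**
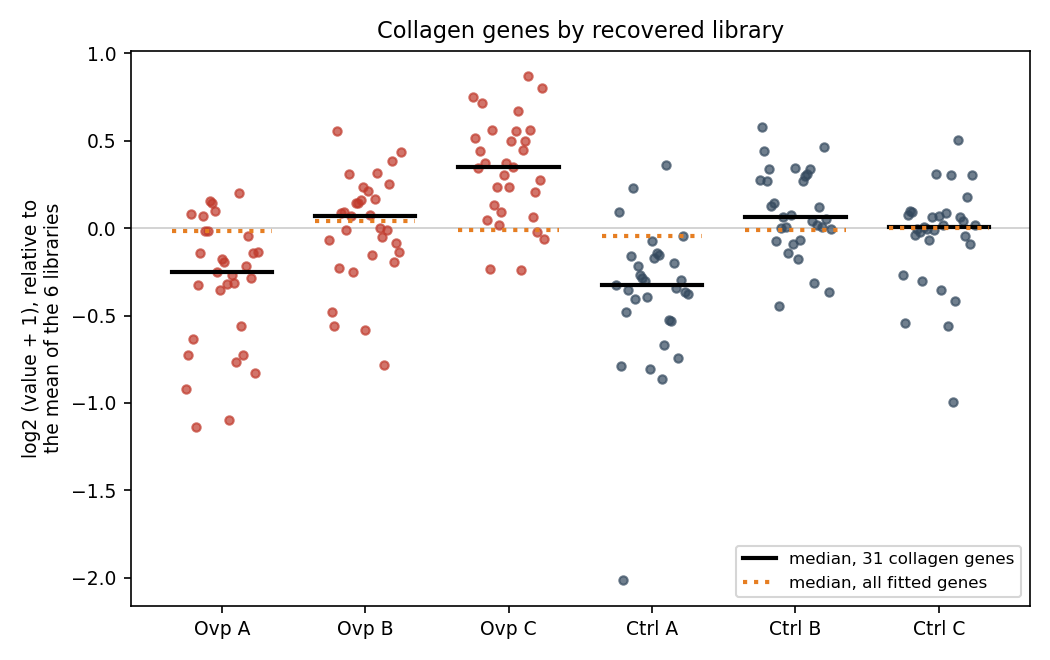
Ratio of value + 1 to its mean over the 6 libraries, as log2, for each of the 31 collagen genes by library. Solid bars mark the collagen median and dotted bars the median of all fitted genes. The collagen median is -0.25 in Ovp A and -0.33 in Ctrl A and 0.35 in Ovp C, while the dotted bars stay near 0; the point near -2 in Ctrl A is Col4a3.

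The group difference of the fitted genes moved with the libraries used. With all libraries, 21 of the 31 had a higher and 10 a lower fitted value in Ovp, against 53.4% higher over all fitted genes. Without Ovp C the split was 15 higher and 16 lower, against 55.6% higher over all genes. Without Ctrl A it was 14 higher and 17 lower, against 50.8%, and without Ovp A 26 higher and 5 lower, against 56.5%. Ovp A against Ctrl A alone gave a median log2 difference of 0.03, with 18 of 31 genes higher in Ovp, or 58.1%, against 52.7% of all fitted genes. B and C alone gave 0.15, with 23 higher, or 74.2%, against 54.1%. With a term for library A in limma, an alternative chosen after seeing the data, 2 of the 31 genes had an unadjusted p under 0.05, against 2.26% of fitted genes, and 0 an adjusted one. They were Col7a1, with 0.44 ± 0.15 (SE, n = 3 libraries per group) and an unadjusted limma p of 0.0133, and Col6a3, with 0.57 ± 0.23 (SE, n = 3 libraries per group) and 0.0330. Col2a1 then had an unadjusted limma p of 0.0524. Without the term the unadjusted limma p was 0.0551 for Col7a1 and 0.0840 for Col6a3. The term takes out the low level in A that these same collagen genes showed in both groups. The smaller spread of Col7a1 and Col6a3 under it is thus in part due to the choice. It has no basis in the labels, since a shared letter stands for the order of depth only. Reads of the Y-linked genes Eif2s3y, Ddx3y and Kdm5d came from Ctrl A alone in Ctrl, where Ctrl A had 1176, 1080.3 and 669.95 scaled reads. In Ovp, the means of Eif2s3y and Kdm5d matched whole reads in Ovp A alone and not in B or C alone. The Ovp mean of Ddx3y, and the means of Uty in both groups, matched reads of no single library. By the genes that could be placed, library A of each group also differed in Y-linked reads, and the part of this in the collagen levels was not tested.

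The group medians of genes that build and handle collagen lay nearer to 0 than the 0.13 of the 43 collagen genes. The basement membrane collagen genes, with a median of 0.05, were as near to 0 as the first of these lists. Of 19 genes for collagen modification and folding, 13 were higher and 6 lower in Ovp, against 46.8% higher over all genes. Their median log2 fold change was 0.05. Mia3, which helps to load procollagen into transport carriers, had 2398 in Ovp and 2435 in Ctrl. P4hb, a subunit of prolyl 4-hydroxylase, had 1914 in Ovp and 1921 in Ctrl, and Colgalt1, a collagen galactosyltransferase, had 1012 in Ovp and 1028 in Ctrl. Of 12 genes for procollagen processing and crosslinking with a mean of at least 10, 6 were higher and 6 lower in Ovp, with a median of -0.01. Bmp1, which removes the C-propeptide, had 1805 in Ovp and 1637 in Ctrl, and the N-propeptide proteases Adamts3 and Adamts2 had 609.7 and 251 in Ovp and 646 and 262 in Ctrl. In both lists 0 genes were under 0.05 by the authors' unadjusted p, against 0.534% of all 30152 genes, so lists this short would mostly hold none.

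Of 9 collagen receptor genes 4 were higher and 5 lower in Ovp, with a median of -0.04, and the most abundant were Itgb1, at 1941 in Ovp and 2089 in Ctrl, Adgrg1, at 1940 in Ovp and 1843 in Ctrl, and Ddr1, at 1205 in Ovp and 1197 in Ctrl. Of 11 genes for collagen breakdown and its inhibitors 5 were higher and 6 lower, with a median of -0.0018, led by the metalloproteinase inhibitors Timp2, Timp3 and Timp4. More genes were lower than higher in Ovp among 15 basement membrane partners, with 5 higher and 10 lower, against 46.8% higher over all genes, and a median of -0.06. The laminin chain Lamc1 had 1475 in Ovp and 1465 in Ctrl, the linker Nid1 769 in Ovp and 806 in Ctrl, and the proteoglycan Agrn 6450 in Ovp and 5951 in Ctrl. The 12 fibril-associated matrix genes also had 4 higher and 8 lower, with a median of -0.01, and the collagen chaperone Sparc had 7298 in Ovp and 7191 in Ctrl. In each of these lists 0 genes were under 0.05 by the authors' unadjusted p, against 0.534% of all 30152 genes. At that share lists this short would mostly hold none.

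Markers of cells that make collagen in the brain varied with the libraries in Ovp. All 10 markers of meningeal and perivascular fibroblasts were above 0 in both groups, 2 higher and 8 lower in Ovp, with a median log2 fold change of -0.19. The 7 of them with recovered libraries added up to 634, 1005 and 1357.5 scaled reads in Ovp A, B and C and 1060, 1192 and 1102 in Ctrl A, B and C. Ovp A was the lowest Ovp library for all 7, and Ovp C the highest for 6. Fmod, a fibril-binding proteoglycan on this list, had 199.6, 359.5 and 503 in Ovp A, B and C and 342, 354 and 352 in Ctrl A, B and C. The sum of 5 of 8 mural markers was 696, 1175.5 and 1219.9 in Ovp A, B and C and 1086, 960.1 and 1111.6 in Ctrl A, B and C, with Ovp A lowest for all 5. Both lists were thus low in Ovp A, as the collagen genes were, but in Ctrl the mural sum was lowest in B. Of 7 endothelial markers 5 were higher and 2 lower in Ovp, with a median of 0.07, and 2 were recovered, with sums of 785.5, 1094 and 1136 in Ovp A, B and C and 1009, 1116 and 990.3 in Ctrl A, B and C. Of the 4 choroid plexus markers with a mean of at least 10, 2 were higher and 2 lower in Ovp. Their median log2 fold change was 0.045. Ttr had 713 in Ctrl B against 76.4 and 79.4 in Ctrl A and C. Aqp1 and Clic6 were also highest in Ctrl B within Ctrl, at few reads. Kl was highest in Ctrl A instead, with 88.6, 73.4 and 28.7 in Ctrl A, B and C. The part of these cell types in the collagen values was not tested.

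**Figure D5:**
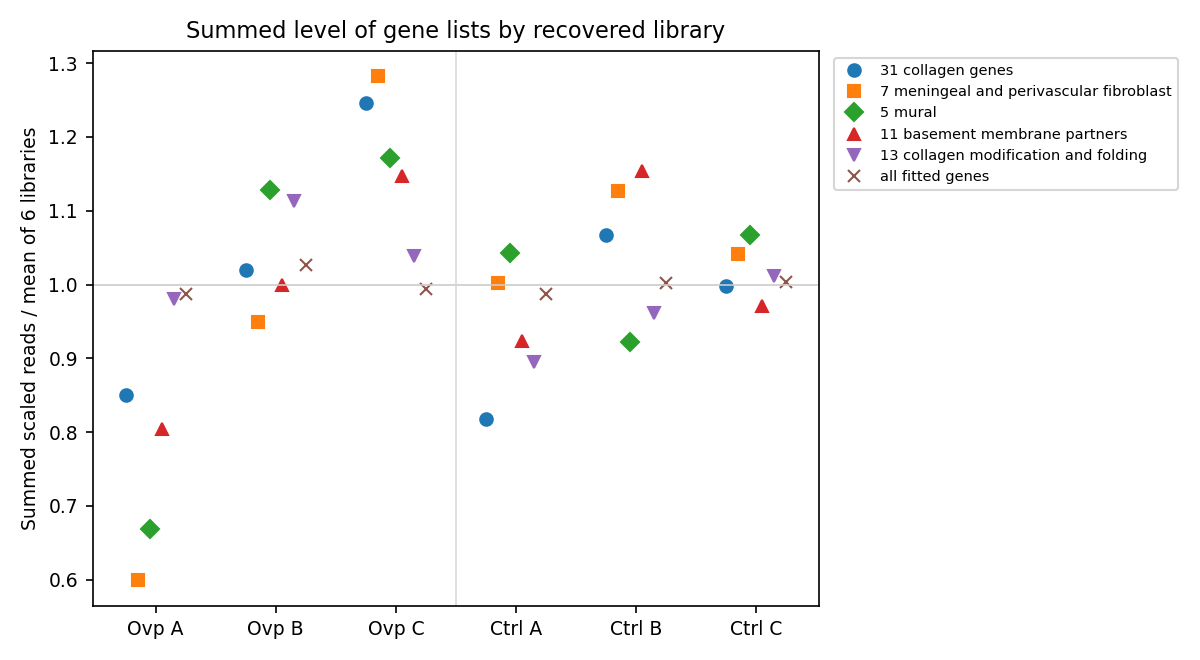
Summed scaled reads of the recovered members of 5 gene lists and of all fitted genes in each library, divided by the mean of the 6 libraries. Collagen genes are low in Ovp A and Ctrl A and high in Ovp C, fibroblast and mural markers are low in Ovp A, and the sum of all fitted genes stays near 1.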

How the data were processed

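Per the labels' protocols, dissected tissue was frozen, its RNA isolated by the Trizol method and a TruSeq kit used for the libraries. The submitters' processing notes name TopHat2 2.0.9 and Bowtie2 2.0.6. Of counting tool, annotation, build, strand setting and test, the sources used here give none. Each row of the deposited table holds a signal for 1 gene in each group, the authors' mean of scaled read counts over 3 libraries, with the log2 fold change of each gene and both an unadjusted and an adjusted p-value. No count per library was used as deposited, and 0 columns belong to other samples.

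Group means were printed to 10 significant digits, and each is a sum of whole reads times 1 step per library. Steps were taken from the lowest frequent values and refined by least squares, and whole reads were searched for means up to 1000. A mean was kept when 1 set of reads matched it, or when 1 set had every library within 2-fold of the mean, which favours similar libraries. This recovered 89.5% of 24203 Ovp means and 99.99% of 23575 Ctrl means, but 8.94% of Ovp means between 500 and 1000, the range of several abundant collagen genes. Both groups were recovered for 10282 genes, 60.1% of those with a mean of at least 10. They were fitted with limma 3.58.1 in R 4.3.3 on log2(value + 1) with a variance trend and Benjamini-Hochberg adjustment. The recovery and limma fit were checked on simulated data. Libraries of a group differed by more than sampling noise, with a mean chi-square per gene of 2.73 to 4.58.

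Symbols matched 98.8% of 47069 Ensembl identifiers through GENCODE release 21, whose exons, merged per gene, gave lengths. Upstream sequences are from RefSeq (GRCm38.p6) and matched 35 of the 44 genes. Members, families, partner lists and marker lists were chosen with earlier results of these data known. All collagen genes with a mean of at least 10 could be named, and of each list the 3 most abundant genes and any with an authors' p under 0.05. Alternatives covered thresholds, pseudocounts, filters, scaling, variance trend and left-out libraries.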

Additional observations from a re-analysis of the deposited data

How the results depend on the processing

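Counts of collagen genes with a limma p under 0.05 are given here with the share of all fitted genes in brackets. The count was 1 with pseudocounts of 0.5 (2.06%) and 5 (2.08%). It was 2 with no filter on the mean (3.12%) and with no mean-variance trend (3.34%). With a mean of at least 50 (1.71%) the count was 0 of 20 collagen genes, but Col2a1 lies below that mean and was not fitted. With median-ratio scaling (2.06%), where Col2a1 had an unadjusted limma p of 0.0521, the count was also 0. With 1 library left out it ran from 0 without Ctrl A (against 1.45% of all fitted genes) to 5 without Ovp A (2.38%), with 4 without Ctrl B (2.24%), 2 without Ovp C (3.13%) and 2 without Ctrl C (3.71%). Among alternatives chosen after seeing the data, it was 0 with B and C libraries only (1.35%) and 2 with a term for library A (2.26%). With genes that had one set of reads over all reads, also chosen after seeing the data, it was 1 (2.09%). With 1 library left out, medians of recovered genes ran from -0.02 to 0.30 for fibrillar, from -0.28 to 0.34 for basement membrane and from 0.05 to 0.26 for other collagen genes. They were below 0 for fibrillar and basement membrane genes without Ovp C (-0.02 and -0.28) and without Ctrl A (-0.0051 and -0.11). On recovered genes with all libraries the fibrillar median was 0.0050, against 0.15 over all 11, of which 5 were recovered. The count of 3 genes with an authors' p under 0.05 was 2 at a threshold of 0.01 and 3 at means of at least 10 and 100. These floors could not change it, since all 3 genes have means above 100. The share of all genes was not taken at these settings, so these counts cannot be set against it. Of the single-gene comparisons under alternatives, 421 kept their side of the threshold, 18 passed it newly and 9 fell short of it. Since 1 of the 31 genes was under the threshold at first, most comparisons had no call to lose. The 421 are therefore no measure of stability. All 9 that fell short were those of Col2a1, the 1 gene called. No paired analysis was possible because the recovered libraries cannot be tied to replicate numbers, and the term for library A is no pairing by number. Depth limits low genes such as Col10a1, and means above 1000 were not searched.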
